A study of Mus musculus with 7 samples.

Results

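Neutrophils washed from the arthritic joint on day 7 of K/BxN serum transfer arthritis were compared, gene by gene, with neutrophils washed from 2 sites inflamed for 3 h by interleukin-1β (IL-1β), the lung and the peritoneum. Members were all cells that the authors' deposited per-cell table placed in one of these conditions and whose closest ImmGen reference population, also given there, was a neutrophil population (label starting GN). This gave 3529 cells of 4856 in the library, of which 2857 came from the joint, 380 from the lung and 292 from the peritoneum. Only 3 cells of these conditions carried another label and were left out. The study's text gives the cell numbers of the lung and the peritoneum in the reverse order of size to the deposited table, which was followed here. Values given for the lung or the peritoneum singly therefore rest on the labels of that table, whereas calls against both sites do not depend on which is which. Scgb1a1, a gene of the club cells that line the airways, had 88 UMIs in cells labelled lung and 0 in cells labelled peritoneum.

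The mice were male C57BL/6J and 8 weeks old at the start of each model. Arthritic mice received serum of K/BxN mice into the peritoneal cavity on day 0 and day 2 and were killed on day 7, and cells came from joint lavage and, as a further condition, from blood. The lung condition received 25 ng of IL-1β into the nose and was lavaged after 3 h, and the peritoneal condition received 25 ng into the peritoneal cavity and was lavaged after 3 h. Blood of healthy mice was the remaining condition. Live CD11b+ Ly6G+ cells were sorted, tagged with a hashtag antibody for each of the 5 conditions and sequenced as one 10X 3' v3 library. Each condition was a pool of 3 mice and is therefore 1 sample, so no test between conditions was possible, and intervals below cover counting error only. Stimulus, time after the stimulus and tissue all differed between the joint and the IL-1β sites and cannot be told apart.

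Neutrophils leave the marrow as short-lived cells loaded with granule proteins, and at an inflamed site they change their transcripts within hours. IL-1β is sensed through a receptor that signals to NF-κB, which induces cytokines, chemokines, survival genes and its own inhibitors, while growth factors and cytokines such as G-CSF act through STAT proteins and induce SOCS feedback genes. Serum transfer arthritis is driven by antibodies that form immune complexes in the joint, which neutrophils bind through Fc receptors, and neutrophils that have been in tissue for longer take up debris and lipid through the lysosome.

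The per-cell depth was close in the 3 sites, with a median of 3531 unique molecular identifiers (UMIs, one per captured transcript molecule) per cell in the joint, 3681 in the lung and 3476 in the peritoneum, and lower in healthy blood, at 2527. Cells under 1000 UMIs made up 4.31% of joint cells, 24.7% of lung cells and 20.9% of peritoneal cells. Summed over cells the joint held 10293966 UMIs, the lung 1321078 and the peritoneum 942688, so joint sums were the most precise. The ImmGen label was GN.Arth.SynF, a reference of synovial fluid neutrophils in arthritis, for 79.1% of joint cells (95% Clopper-Pearson interval 77.6-80.6%), 72.4% of lung cells (67.6-76.8%) and 34.6% of peritoneal cells (29.1-40.4%). The label GN.Thio.PC, of thioglycollate-elicited peritoneal neutrophils, was given to 8.58%, 19.5% and 55.8%. The neutrophil markers S100a8 and S100a9 had UMIs in nearly every cell, and none of the 16 neutrophil markers was at 0, though Camp had only 12 UMIs in the joint. The 16 markers summed to 179421 scaled CPM in the joint, 278751 in the lung and 281623 in the peritoneum. By the rule given below, 6 of them were lower in the joint than both sites and 0 higher. Of the lung epithelium markers, Scgb1a1 had 2 UMIs in the joint, and the 7 markers together reached 95.9 scaled CPM in the lung against 8.65 and 2.86. Synovial fibroblast markers reached 60.8 in the joint against 14.8 and 5.72, of which Pdpn, a glycoprotein that other cells also make, was 55.5, 11.9 and 2.86. Monocyte and macrophage markers summed to 301, 386 and 525, and the mast cell and basophil markers to 2250.4, 4398 and 4069. Nearly all of the last came from Hdc, the histamine-making enzyme, at 2250.4, 4398 and 4067 against 667 and 393 in K/BxN and healthy blood, and the other 7 markers were at 0 in the joint and the lung. Of the monocyte and macrophage markers, Adgre1 was highest in the peritoneum, at 32.1, 30.6 and 212 in the joint, lung and peritoneum, while the Fc receptor Fcgr1 was highest in the joint, with 83, 2 and 1 UMIs. The macrophage complement genes C1qa, C1qb and C1qc had 28, 39 and 20 UMIs in the joint against 0 in the lung and 0, 1 and 0 in the peritoneum. A UMI of any of the 3 was found in 49 joint cells, 0 lung cells and 1 peritoneal cell. With these cells left out, 268 genes were higher in the joint than both sites and 357 lower by the rule given below, of which 263 and 356 had the same call among all cells. The part of the remaining markers was not tested.

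For each gene, UMIs were summed over the cells of a condition and given per 1000000 UMIs of that condition (CPM), scaled by the trimmed mean of M-values (TMM) so that the joint's factor is 1 (scaled CPM). The factor was 0.766 for the lung, 0.742 for the peritoneum, 1.07 for K/BxN blood and 1.54 for healthy blood, so that plain CPM lies below the scaled value at the IL-1β sites and above it in blood. A level of 100 scaled CPM rested on 1029 UMIs (95% Poisson interval 93.9-106) in the joint, 101 UMIs (95% Poisson interval 81.3-121) in the lung and 70 UMIs (95% Poisson interval 78.1-127) in the peritoneum. A gene was compared only where its mean over the 3 sites reached 20 scaled CPM, which kept 3797 of 13187 genes detected at these sites. Since the limit was on the mean, a high value at a single site could keep a gene. A gene was called higher or lower in the joint where it differed by at least 2-fold from both sites in the same direction.

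The promoter windows of 3 genes (GRCm38.p6, RefSeq, 250 bases before to 30 bases after the gene start, 5′ to 3′) are shown because the genes are described below with the share of promoters that hold the same letters. Cxcl3 encodes a neutrophil-attracting chemokine and was lower in the joint, with overlapping NF-κB letters in capitals (chr5:90785851-90786130 on the plus strand). Cish encodes a feedback inhibitor of STAT5 and was lower, with STAT letters TTCNNNGAA in capitals (chr9:107296409-107296688 on the plus strand). Ctsd encodes the lysosomal protease cathepsin D and was higher, with the letters TCACGTG of the CLEAR motif of lysosomal genes, on either strand, in capitals (chr7:142387798-142388077 on the minus strand).
Cxcl3: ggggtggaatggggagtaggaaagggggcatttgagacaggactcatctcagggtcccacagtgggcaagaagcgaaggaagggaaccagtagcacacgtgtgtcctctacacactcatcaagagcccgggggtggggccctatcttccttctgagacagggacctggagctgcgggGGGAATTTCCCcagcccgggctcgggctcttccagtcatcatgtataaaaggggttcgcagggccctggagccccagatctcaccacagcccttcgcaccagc
Cish: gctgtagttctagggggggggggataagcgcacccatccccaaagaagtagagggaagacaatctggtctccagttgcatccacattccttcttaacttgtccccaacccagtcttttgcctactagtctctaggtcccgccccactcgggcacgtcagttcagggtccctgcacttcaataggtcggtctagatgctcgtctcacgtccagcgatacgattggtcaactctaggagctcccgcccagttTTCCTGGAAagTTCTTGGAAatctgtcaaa
Ctsd: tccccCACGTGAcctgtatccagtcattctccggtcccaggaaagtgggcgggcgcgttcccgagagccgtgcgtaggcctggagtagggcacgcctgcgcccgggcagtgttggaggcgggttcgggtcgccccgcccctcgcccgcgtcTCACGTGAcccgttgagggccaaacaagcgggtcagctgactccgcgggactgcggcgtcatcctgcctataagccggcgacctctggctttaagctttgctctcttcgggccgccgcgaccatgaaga

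Against the lung, 485 genes were at least 2-fold higher in the joint (12.8% of those kept) and 520 were at least 2-fold lower (13.7%). Against the peritoneum, 481 were higher (12.7%) and 575 lower (15.1%). Both conditions were met by 266 genes that were higher in the joint (7.01%) and 356 that were lower (9.38%), while 11 genes (0.29%) were past 2-fold in opposite directions. The split depended on the scaling: with plain CPM it was 497 higher and 219 lower (14.3% and 6.28% of the 3487 genes then kept). With median-of-ratios size factors it was 224 higher and 411 lower (5.78% and 10.6%). With totals that left out the 20 most abundant genes it was 596 higher and 267 lower (13.8% and 6.19%). Each of these scalings moved every log2 ratio against a site by one amount, too small to carry a gene from 2-fold higher to 2-fold lower. That no gene changed from higher to lower or the reverse was therefore fixed in advance. The genes rather than the balance of directions are described. Among the 96 named genes with a call, P2ry2, Irf5, Pfkfb3, Egln3, Hspa8, Abca1 and Marcks lost their lower call under plain CPM and 3 others fell under the level limit. With thinned cells Hbegf, Jun, H2-Eb1, Pfkfb3, Egln3, Mt2 and Bax lost the call, and 88 of 95 kept it. Plain CPM moved the median log2 ratio of all genes from 0.01 to 0.40 against the lung and from 0.0025 to 0.43 against the peritoneum. The lung and the peritoneum differed by at least 2-fold in 16.6% of genes, and the joint differed from the lung in 26.5% and from the peritoneum in 27.8%.

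**Figure D1:**
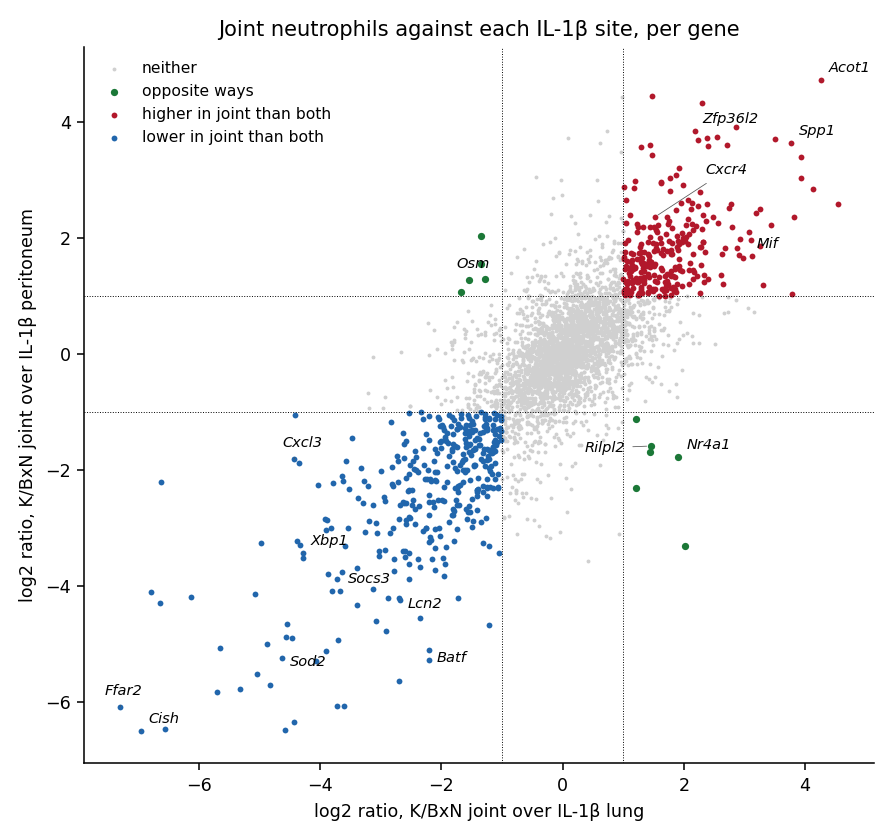
Log2 ratio of scaled CPM in the K/BxN joint over the IL-1β lung (horizontal) and over the IL-1β peritoneum (vertical), 1 point per kept gene, with dotted lines at 2-fold. The 266 genes higher in the joint than both sites are at the upper right and the 356 lower genes at the lower left, where Cish and Ffar2 lie farthest out among the labelled genes, and 11 genes lie in the opposite corners.

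Genes higher in the joint were led by Acot1 and Spp1. Spp1 (chr5:104435111-104441053), which encodes the secreted phosphoprotein osteopontin, measured 1902, 139 and 153 scaled CPM in the joint, lung and peritoneum, and 37.5 and 29.4 in K/BxN and healthy blood. It was 13.7-fold and 12.4-fold higher in the joint than in the lung and the peritoneum. With every cell thinned to 1000 UMIs, a Spp1 UMI was found in 33.3% (31.5-35.1%) of joint cells, 4.9% (2.7-8.08%) of lung cells, 5.19% (2.71-8.9%) of peritoneal cells and 5.37% (3.26-8.25%) of healthy blood cells (without thinning 45.7%, 15%, 18.2% and 8.25%), so the share at both IL-1β sites was at the level of the blood cells that shared the library. In the lung 3 cells held 48.9% of the Spp1 UMIs. Without the 3 top cells of each condition the levels were 1828, 71.2 and 97.3, and 35.1 and 23.1 in K/BxN and healthy blood. The summed levels at both IL-1β sites were thus above blood, although the thinned shares were not. Acot1 (chr12:84009502-84017670), a thioesterase that releases fatty acids from coenzyme A, had 1171 UMIs in the joint, 6 in the lung and 3 in the peritoneum. Its log2 ratio was 4.26 (counting interval 3.14 to 5.71) against the lung and 4.73 (counting interval 3.18 to 7.01) against the peritoneum.

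Genes of the lysosome and of lipid handling were among those that differed most often in this direction. Of 26 kept members, 8 were higher in the joint (30.8%, against 7.01% of all kept genes) and 1 was lower, with median log2 ratios of 0.93 against the lung and 1.04 against the peritoneum, beside 0.01 and 0.0025 over all kept genes. Under plain CPM, where 14.3% of all kept genes were higher, 16 of 26 members were higher and 0 lower. Ctsd (chr7:142375910-142387827), whose promoter with 3 CLEAR matches, 2 of them overlapping, is shown above, measured 2409, 485 and 631 in the joint, lung and peritoneum and 874 and 622 in K/BxN and healthy blood. It was 4.96-fold and 3.82-fold higher in the joint, with K/BxN blood nearest to it. Grn, which encodes the lysosomal protein progranulin, measured 165, 33.6 and 37.2, and Hexa, a subunit of a glycolipid-degrading enzyme, 112, 25.7 and 18.6. Hexa was at 84.3 in healthy blood, so the joint was near blood and both IL-1β sites were below it. The remaining higher members were Spp1, described above and listed here although it is secreted, and Ctsb, Psap, Npc2 and Apoe, which encode a protease, a sphingolipid activator, a cholesterol carrier and a lipoprotein. Psap measured 1074, 397 and 378, Ctsb 801, 233 and 366, Npc2 171, 54.4 and 48.6 and Apoe 284, 122 and 60.1. With the cells that held a C1q UMI left out, the same 8 members were higher and Apoe measured 272.5, 121.5 and 60.2. Abca1, the cholesterol exporter, was the lower member, at 66.6, 166 and 239. Outside the list, Scarb2, a lysosomal membrane protein, measured 215, 52.4 and 45.8, and Cstb, an inhibitor of lysosomal cysteine proteases, measured 1574, 377 and 313 against 119 and 106 in blood. Cstb was 4.18-fold and 5.02-fold higher in the joint, with both IL-1β sites lying between the joint and blood.

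Letters of the CLEAR motif were present on either strand of the promoter of 6 of the 26 lysosome list genes that matched the RefSeq table, of 35 listed (23.1%). The window searched for motifs reached 50 bases after the gene start, 300 bases in all. The share was 4.29% of all 27025 promoters, 8.52% of the 2970 kept genes with a promoter, 10.2% of 205 higher genes and 7.53% of 292 lower genes.

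**Figure D2:**
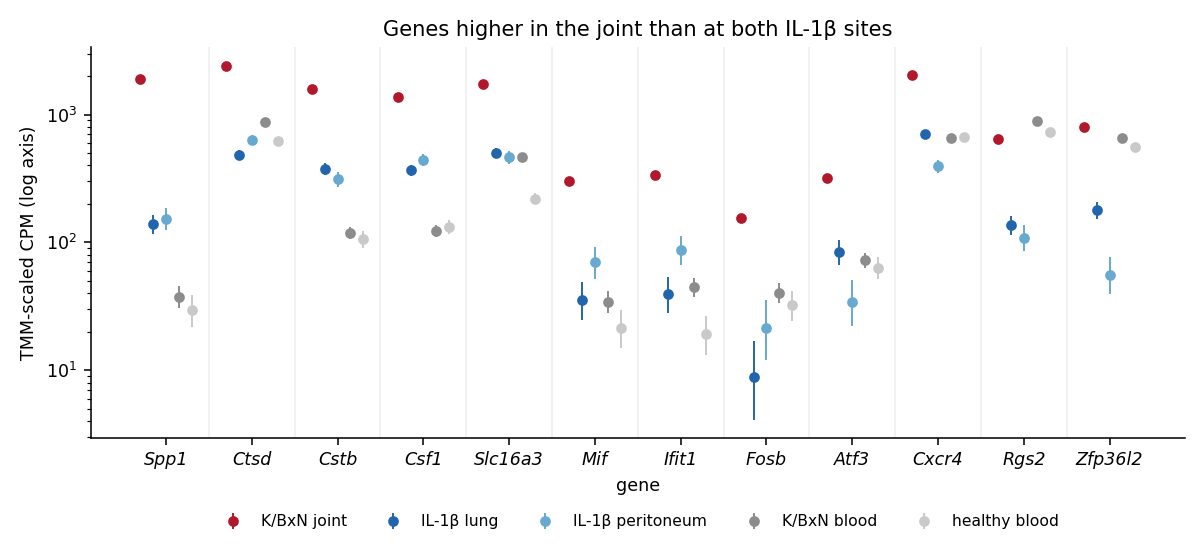
Scaled CPM on a log axis for 12 genes higher in the joint, in each of the 5 conditions, with 95% Poisson intervals of the summed count. The joint is above both IL-1β sites for every gene shown, while Rgs2 is as high in both bloods (888 and 729.5) as in the joint (639).

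Among listed receptors for chemoattractants, 1 of 11 kept members was higher in the joint (9.09%, against 7.01% of all kept genes) and 3 were lower (27.3%, against 9.38%). Cxcr4, the receptor for the marrow retention chemokine CXCL12, measured 2028, 708 and 395 in the joint, lung and peritoneum and 654 and 674 in K/BxN and healthy blood. The joint was above every other condition, 2.87-fold and 5.14-fold above the IL-1β sites, and a UMI was found in 74.8%, 31.5%, 19% and 56.8% of thinned cells of the joint, lung, peritoneum and healthy blood (without thinning 93.4%, 51.8%, 40.4% and 69.5%). Cxcr2, the receptor for the chemokines that draw neutrophils into tissue, was within 2-fold, at 1410.0, 2753 and 1832. The formyl peptide receptors were lower, Fpr1 at 266, 913 and 1327 and Fpr2 at 309, 967 and 1436. P2ry2, a nucleotide receptor, was the last lower member at 20.2, 48.4 and 50.1. Receptors outside the list were also among the lower genes. Ffar2, the receptor for short-chain fatty acids, measured 2.23, 352 and 152, and was 157-fold and 67.9-fold higher at the IL-1β sites than in the joint. Blood was at 1.39 and 4.04, so the joint lay with blood and the IL-1β sites stood apart. Gpr84, a receptor for medium-chain fatty acids, was also lower in the joint, at 9.13, 259 and 479, as was the adenosine receptor Adora3 at 5.34, 126 and 136.

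Of 19 kept cytokine and IL-1 axis genes 9 were lower (47.4%, against 9.38% of all kept genes) and 2 higher (10.5%, against 7.01%), with medians of -1.41 against the lung and -1.17 against the peritoneum. Of 8 chemokine ligands 2 were lower (25%, against 9.38% of all kept genes) and 0 higher. With a mean of at least 100 scaled CPM 1 of 6 was lower, against 14.9% of all genes then kept. Il1a, which encodes interleukin-1α, measured 3.69, 187 and 124 in the joint, lung and peritoneum. The joint was closer to blood, at 1.04 and 1.15, and the IL-1β sites were 50.6-fold and 33.7-fold higher. Il1b itself was abundant throughout, at 7528, 16214 and 13474 against 3543 and 2512 in blood, and did not pass 2-fold against the peritoneum. Cxcl3 (chr5:90786101-90788093; promoter above) measured 559.7, 12084 and 1968, and its UMIs were found in 21%, 78.7%, 40.3% and 5.37% of thinned cells of the joint, lung, peritoneum and healthy blood (without thinning 36.1%, 83.7%, 52.7% and 14.1%). The lung was the highest site by a wide margin, and the joint was still above blood (46.2 and 49.1). Cxcl1, with the same NF-κB letters at a nearly equal distance from its start, was sparse at 1.94, 61.3 and 18.6, and 3 cells held 79% of its lung UMIs. It reached the level limit only through the lung. Other lower cytokine genes were Tgfb1 at 69.3, 431 and 732, Il23a at 1.07, 25.7 and 95.8 and Hbegf at 0.583, 64.2 and 10, the last with only 6 UMIs in the joint and 7 in the peritoneum. Hbegf reached the level limit only through the lung, and without the top 3 cells of each site it had no ratio against the peritoneum.

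The 2 higher members of the cytokine list were growth factor genes. Csf1, which encodes the macrophage growth factor M-CSF, measured 1381, 367 and 443 in the joint, lung and peritoneum and 123 and 132 in K/BxN and healthy blood. It was 3.77-fold and 3.12-fold higher in the joint, and 53.9%, 19.2%, 22.5% and 16.7% of thinned cells of the joint, lung, peritoneum and healthy blood (without thinning 75.2%, 40.3%, 44.2% and 30.3%) held a UMI. Vegfa, an angiogenic factor, measured 62.9, 25.7 and 20. Mif, a cytokine gene listed here with glycolysis and hypoxia, measured 301, 35.6 and 70.1 and was 8.45-fold and 4.29-fold higher in the joint, with blood at 34.4 and 21.4.

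The NF-κB list had the largest share of lower members of all 16 lists. Of 21 kept members of this list, named for subunits and feedback genes, 16 were lower in the joint (76.2%, against 9.38% of all kept genes) and 0 were higher, with medians of -2.14 against the lung and -3.21 against the peritoneum. Under plain CPM 14 were lower and 0 higher, against 6.28% and 14.3% of all kept genes. Sod2, the mitochondrial superoxide dismutase and neither a subunit nor an inhibitor of NF-κB, measured 58.7, 1454 and 2224 in the joint, lung and peritoneum and 21.9 and 16.7 in blood. It was 24.8-fold and 37.9-fold higher at the IL-1β sites, and 5.08%, 47.6%, 62.3% and 3.39% of thinned cells of the joint, lung, peritoneum and healthy blood (without thinning 13.3%, 56.3%, 68.8% and 5.5%) held a UMI. The joint thus lay much nearer to blood than to either site. Nfkb1, which encodes the p50 precursor, measured 70.8, 578 and 798 against 39.2 in healthy blood, and the adaptor Traf1 23.6, 310.3 and 348 against 2.89. Zc3h12a, an RNase that degrades cytokine messages, measured 41.9, 289 and 562. Of the inhibitors, Nfkbia measured 700.2, 3468 and 5809 and Tnfaip3, which encodes A20, 77.1, 503 and 1436. The 5 members below did not pass against both sites: Rel at 111, 206 and 769.6, Rela at 85.4, 164 and 217, Tnfaip2 at 1253, 2019 and 5574, Nfkbid at 333, 249 and 183, and Tnip3, which had 3 UMIs in the joint, 1 in the lung and 98 in the peritoneum (140.2 scaled CPM). The peritoneum was above the lung for all 16 lower members. Tifa, an NF-κB adaptor outside the list, measured 3.4, 135 and 187.

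NF-κB letters were present in the promoter of 10 of 19 list genes with a RefSeq promoter, of 22 listed (52.6%). The share was 5.14% of all promoters, 7.41% of kept genes, 14.4% of lower genes and 9.76% of higher genes. Factors bind many sites outside this window, and a match describes letters only.

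**Figure D3:**
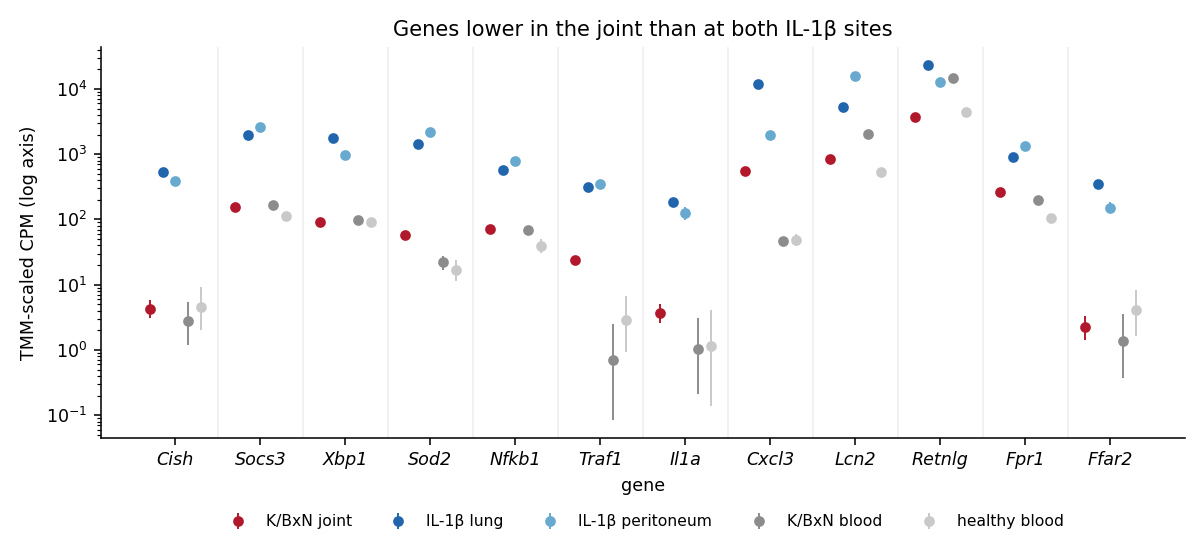
Scaled CPM on a log axis for 12 genes lower in the joint, in each of the 5 conditions, with 95% Poisson intervals of the summed count. Both IL-1β sites are above the joint for every gene shown, and for Cish, Socs3 and Xbp1 the joint is close to the 2 bloods.

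Cish and Socs3, which encode feedback inhibitors of cytokine receptors, were far lower in the joint. Cish (chr9:107296659-107302784; promoter above) measured 4.27, 534 and 388 in the joint, lung and peritoneum and 2.78 and 4.62 in K/BxN and healthy blood. Cish UMIs were found in 0.439%, 32.5%, 27.3% and 0.847% of thinned cells of the joint, lung, peritoneum and healthy blood (without thinning 1.47%, 62.6%, 50.3% and 1.38%). The lung and the peritoneum were 125-fold and 90.7-fold above the joint, whose log2 ratio was -6.96 (counting interval -7.44 to -6.52) against the lung. Socs3, the feedback inhibitor of STAT3 signalling, measured 153, 1953 and 2602 against 169 and 114 in blood, and 13.2%, 69.6%, 76.6% and 16.9% of thinned cells held a UMI in the same order (without thinning 33%, 85.8%, 92.8% and 27.3%). Joint and blood again lay together for both genes. The other kept genes of the Socs family were Socs1, lower at 15.7, 73.1 and 62.9, and Socs4, at 30.4, 67.2 and 47.2, which did not pass. Xbp1, a transcription factor of secretion and the unfolded protein response, measured 91.6, 1792 and 986 against 98.4 and 90.6. STAT letters were present in 15.8% of lower-gene promoters, 6.34% of higher-gene promoters, 8.18% of those of kept genes and 9.55% of all promoters. AP-1 letters were present in 12.7%, 9.27%, 7.31% and 8.97% of the same sets, and cyclic AMP response element letters in 2.74%, 2.93%, 4.11% and 2.03%.

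AP-1 and immediate early factors were divided: of 27 kept members 5 were higher (18.5%), 3 lower (11.1%) and 1 opposite, against 7.01% higher and 9.38% lower of all kept genes, with medians of -0.22 against the lung and -0.22 against the peritoneum. Both medians changed sign under plain CPM, to 0.16 and 0.22. Among GN.Thio.PC cells alone 2 members were higher and 5 lower, against 8.06% and 10.3% of all kept genes, and the medians were -0.10 and -1.09. Fosb measured 155, 8.89 and 21.5 in the joint, lung and peritoneum, the stress factor Atf3 318, 84 and 34.3, Jun 204, 83 and 83 and the ERK phosphatase Dusp5 283, 81 and 85.8. The joint was also above healthy blood, which for these genes was at 32.3, 63.5, 35.8 and 17.9. Fos was the remaining higher member, at 1065, 492 and 202. The lower members were Batf at 27.6, 127 and 956, Dusp2 at 18.9, 123 and 947 and Ier3 at 626, 4983 and 2530.4. Batf and Dusp2 were highest in the peritoneum, and Ier3 in the lung.

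Among transcription factors of neutrophils, 5 of 21 were lower (23.8%, against 9.38% of all kept genes) and 0 higher. Under plain CPM 3 were lower, against 6.28%. Id1 measured 128, 1241 and 585, Irf5 56.7, 127 and 239, and Rara, the retinoic acid receptor, 148, 412 and 469. Cebpb, a factor of mature and emergency-state neutrophils, was within 2-fold of both sites, at 6284, 7435 and 5833. All 3 sites were above K/BxN and healthy blood, at 1559 and 731.

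Interferon-stimulated genes held 8 higher (25.8%, against 7.01% of all kept genes) and 2 lower (6.45%, against 9.38%) members of 31 kept, with medians of 0.68 against the lung and -0.08 against the peritoneum. Under plain CPM 12 were higher and 2 lower, against 14.3% and 6.28% of all kept genes, and the median against the peritoneum changed sign, to 0.31. Ifit1 measured 339.8, 39.5 and 87.3 in the joint, lung and peritoneum and 19 in healthy blood. Ifit3 measured 211, 13.8 and 25.7, its near-identical neighbour Ifit3b 180.4, 11.9 and 17.2 and Cmpk2 124, 17.8 and 27.2; reads of Ifit3 and Ifit3b may have been divided between them. The rest of the higher members were Rsad2, Usp18, Oasl1 and Ifi47. An Ifit1 UMI was found in 10.7%, 2.1%, 4.76% and 1.41% of thinned cells of the joint, lung, peritoneum and healthy blood (without thinning 15.8%, 5%, 5.82% and 3.34%). The lower members were Gbp5 at 7.77, 33.6 and 103 and Ifitm6 at 296, 1361 and 831, and 21 members, including Isg15 at 795, 319 and 525, did not pass.

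Granule and maturation genes were lower or did not pass: 10 of 20 were lower (50%, against 9.38% of all kept genes) and 0 higher. Lcn2, which encodes a siderophore-binding granule protein, measured 835, 5348 and 15847 in the joint, lung and peritoneum and 2056 and 528 in K/BxN and healthy blood. It was highest in the peritoneum, 19-fold above the joint. Retnlg, a resistin-like protein of neutrophils, measured 3738, 22848 and 12955 against 14839.9 and 4419, with the joint near healthy blood. Ngp, a specific granule protein of immature cells, measured 14.9, 310.3 and 139, and 3 cells held 68% of its peritoneal UMIs. Cybb, the catalytic subunit of the NADPH oxidase, measured 26.4, 194 and 492, and Chil3 4.08, 50.4 and 18.6. Mmp9 was within 2-fold at 1371, 771 and 957, as were S100a8 at 76139.7, 100206 and 99417 and S100a9 at 83557, 122537 and 127413.

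Of 20 kept survival and death genes 9 were lower (45%, against 9.38% of all kept genes) and 1 was higher (5%, against 7.01%). The anti-apoptotic paralogs Bcl2a1a, Bcl2a1b and Bcl2a1d measured 42.7, 719 and 1678, 349, 2118 and 3675 and 60.9, 535 and 1016 in the joint, lung and peritoneum. They share nearly all their coding sequence, so reads may be divided among them, but all 3 were in the same order. Healthy blood was below the joint for each, at 12.7, 18.5 and 2.31. Bax, which promotes death, was the higher member at 91.2, 36.6 and 20.

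Adhesion and Fc receptor genes were lower in 11 of 34 (32.4%, against 9.38% of all kept genes) and higher in 0. Fcgr2b, the inhibitory Fc receptor, measured 19.9, 673 and 350.4, and Icam1, the ligand of the leukocyte integrins, 16.5, 247 and 578. Cd177, a neutrophil surface protein, measured 17.6, 353 and 173, and the inhibitory lectin Siglece 166, 793 and 1329. For Fcgr2b and Cd177 the lung was the higher of the IL-1β sites, and for Icam1 and Siglece the peritoneum. The inhibitory lectin Clec12a, outside the list, measured 45.9, 639 and 785, with K/BxN and healthy blood (139 and 165) between the joint and the IL-1β sites. Under plain CPM the adhesion and Fc receptor counts were 6 lower and 1 higher of 34, those of granule and maturation genes 6 lower and 0 higher of 18, those of survival and death genes 6 lower and 2 higher of 19 and those of cytokine genes 6 lower and 3 higher of 18, against 6.28% lower and 14.3% higher of all kept genes. Among actin and motility genes, 2 of 34 were higher and 4 lower, and 3 each under plain CPM. Their shares of 5.88% and 11.8% were near the 7.01% and 9.38% of all kept genes. Rgs2, a regulator of G protein signalling, was higher at 639, 136 and 109 with blood at 888 and 729.5, and Vim, vimentin, at 498, 155 and 196. Rnd1 was lower at 9.71, 119 and 652, Rhoh at 45.4, 682 and 375, Marcksl1 at 854, 2539.8 and 6172 and Marcks at 1208, 2672 and 6035.

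**Figure D4:**
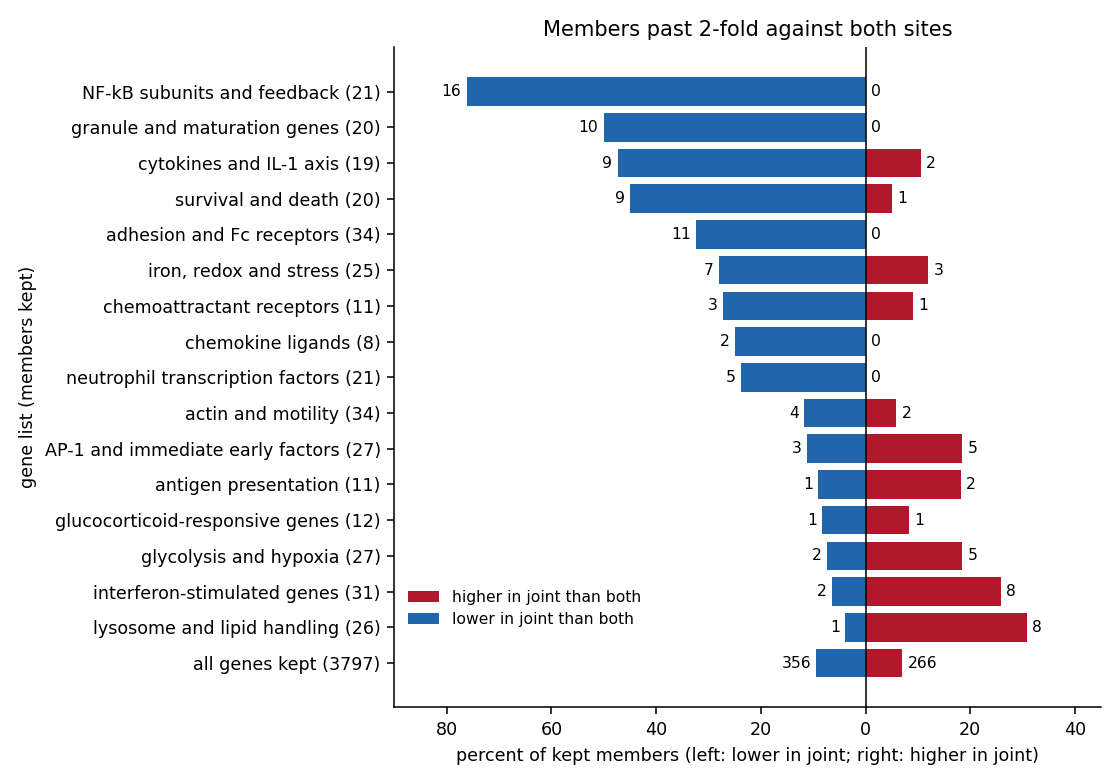
Percent of the kept members of each of 16 gene lists, and of all kept genes at the bottom, that were at least 2-fold lower (left, blue) or higher (right, red) in the joint than at both IL-1β sites, with counts at the bar ends. The NF-κB list reaches furthest to the left (16 of 21) and the lysosome list furthest to the right (8 of 26), against 356 and 266 of 3797 for all kept genes.

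Metabolic genes of glycolysis and hypoxia were higher in 5 of 27 (18.5%, against 7.01% of all kept genes) and lower in 2 (7.41%, against 9.38%), with medians of 0.86 against the lung and 0.46 against the peritoneum. Under plain CPM 10 of 26 were higher and 0 lower, against 14.3% and 6.28% of all kept genes. Slc16a3, the lactate exporter, measured 1741, 499 and 462 in the joint, lung and peritoneum and 463 and 219.9 in blood, and 72%, 24.5%, 22.1% and 23.2% of thinned cells of the joint, lung, peritoneum and healthy blood (without thinning 93.3%, 49.7%, 50% and 46.8%) held a UMI. The glycolytic enzymes Pgam1 and Tpi1 measured 428, 70.2 and 166 and 149, 19.8 and 45.8. P4ha1, a collagen prolyl hydroxylase, was the remaining higher member besides Mif, at 40.8, 2.96 and 20, its lung level resting on 3 UMIs. Pfkfb3, which makes the activator of phosphofructokinase, was lower at 107, 272 and 373, as was the oxygen sensor Egln3 at 101, 295 and 217.

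Iron, redox and stress genes were lower in 7 of 25 (28%, against 9.38% of all kept genes) and higher in 3 (12%, against 7.01%). These became 2 lower and 5 higher of 24 under plain CPM, against 6.28% and 14.3% of all kept genes. Ftl1, the ferritin light chain, measured 11014, 4579.6 and 4604, the iron exporter Slc40a1 312, 61.3 and 91.5 and the sulfiredoxin Srxn1 63, 18.8 and 12.9. Slc40a1 was higher in K/BxN and healthy blood than in the joint, at 534 and 522. Metallothioneins, which bind zinc and copper, were highest in the lung: Mt1 measured 13.9, 1374 and 64.4 and Mt2 0.583, 58.3 and 11.4, the latter with 6 UMIs in the joint. The peritoneal UMIs of Mt2 came from 2 cells, 1 of which held 87.5%. Mt2 reached the level limit only through the lung, and without the top 3 cells of each site it had no ratio against the peritoneum. An Mt1 UMI was found in 1.1%, 24.5% and 2.6% of thinned cells (without thinning 3.29%, 26.1% and 6.85%). Txnrd1, thioredoxin reductase, was lower at 74.9, 542 and 637, and the chaperone Hspa8 at 200.2, 608 and 466.

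Antigen presentation genes had 2 higher (18.2%, against 7.01% of all kept genes) and 1 lower (9.09%, against 9.38%) of 11, the latter share near that of all kept genes. A further 1 was past 2-fold in opposite directions against the lung and the peritoneum. Cd74, the invariant chain of MHC class II, measured 22.6, 191 and 555, while H2-Eb1, a class II β chain, measured 42.1, 20.8 and 5.72 and the immunoproteasome subunit Psmb8 157, 52.4 and 78.7. Cd74 and H2-Eb1 thus did not differ in one direction. H2-Eb1 against the lung (2.03-fold) and Psmb8 against the peritoneum (2-fold) were at the edge of the 2-fold limit. Both lost the call with median-of-ratios size factors and with cells under 1000 UMIs left out, and Psmb8 also with cells of every ImmGen type and among GN.Arth.SynF cells alone. Of the glucocorticoid-responsive list 1 of 12 was higher, Cxcr4, and 1 lower, Mt2, 8.33% each and near the 7.01% and 9.38% of all kept genes.

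Further genes with the largest differences belonged to no list. Higher in the joint were Zfp36l2, an RNA-binding protein that destabilises messages, at 803, 178 and 55.8, Rassf3 at 216, 31.6 and 35.8, Fnip2, a folliculin-interacting protein, at 139, 9.88 and 27.2, Dgkd, a diacylglycerol kinase, at 112, 21.7 and 22.9, and Slc43a2, an amino acid transporter, at 128, 26.7 and 18.6. Zfp36l2 and Rassf3 were within 2-fold of the joint in healthy blood, at 560.4 and 279. The gene models 1700017B05Rik and Gm13822 measured 200.2, 40.5 and 10 and 164, 27.7 and 34.3. BC100530, of the stefin A family, measured 191, 41.5 and 41.5, but 3 cells held 83.3% of its lung UMIs and 89.7% of its peritoneal UMIs. Lower in the joint were Apobec3, a restriction factor, at 21.1, 307 and 292, Plac8 at 51.5, 998 and 589, the lipase Lipg at 4.76, 106 and 142 and Mllt6 at 17, 212 and 230.3. Saa3, an acute-phase protein, measured 2.53, 238 and 223, with 98.3% of its lung UMIs in 3 cells, and without the top 3 cells of each site it measured 0.971, 3.95 and 55.8.

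**Figure D5:**
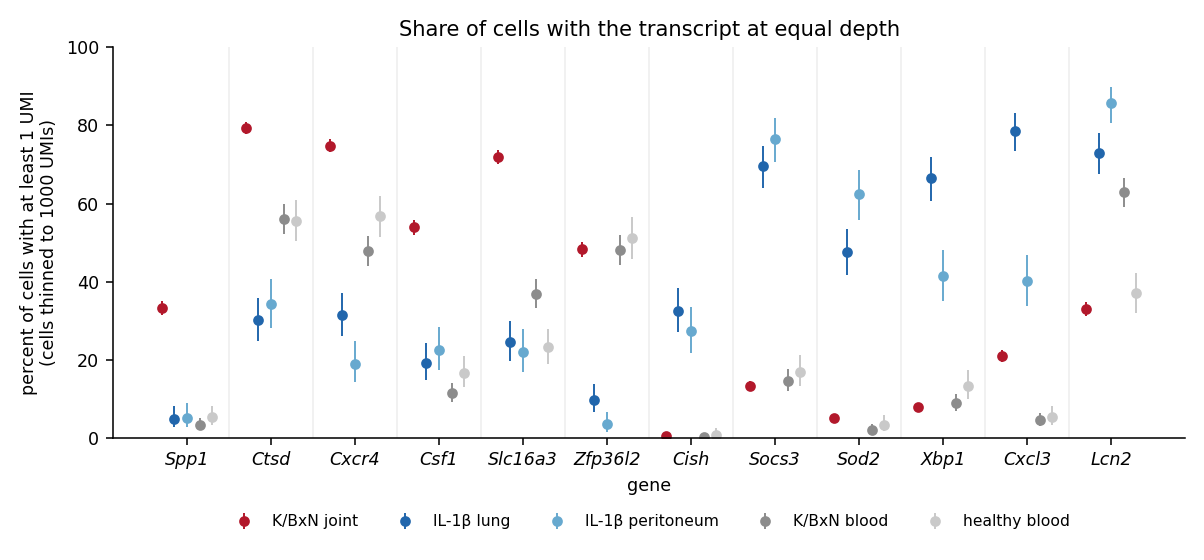
Percent of cells with at least 1 UMI of each of 12 genes, after thinning every cell to 1000 UMIs, in the 5 conditions, with 95% Clopper-Pearson intervals. Spp1, Ctsd, Cxcr4, Csf1, Slc16a3 and Zfp36l2 were found in more joint cells than IL-1β-site cells, and Cish to Lcn2 in fewer, with Zfp36l2 shares in both bloods (48.2% and 51.1%) about those of the joint (48.3%).

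Blood of the same library placed the genes of each direction differently. The values that follow compare the joint and the sites with the same healthy blood cells. Of the 266 genes higher in the joint, the joint was at least 2-fold above healthy blood in 129 (48.5%, against 23.4% of all kept genes). It was within 2-fold in 135 (50.8%, against 73.8%) and below in 2 (0.752%, against 2.79%). Both IL-1β sites were at least 2-fold below healthy blood in 100 (37.6%, against 5.4%) and at least 2-fold above it in 26 (9.77%, against 24.8%). Spp1, Csf1 and Mif were of the first kind, above blood in the joint. Rgs2, Rassf3 and Zfp36l2 were near blood in the joint, with both IL-1β sites below blood. Of the 356 lower genes, both IL-1β sites were at least 2-fold above healthy blood in 329 (92.4%, against 24.8% of all kept genes). The joint was within 2-fold of it in 207 (58.1%, against 73.8%), above in 129 (36.2%, against 23.4%) and below in 20 (5.62%, against 2.79%). The genes were chosen on the same joint and site values, so these shares are a description. They also depended on the scaling of blood. With plain CPM on the same genes, the joint was above healthy blood in 84 of the higher genes (31.6%, against 12.4% of all kept genes). It was within 2-fold in 163 (61.3%, against 72.7%) and below in 19 (7.14%, against 14.9%). Both IL-1β sites were below in 183 (68.8%, against 30%) and above in 9 (3.38%, against 10.9%). Of the lower genes both IL-1β sites were above healthy blood in 227 (63.8%, against 10.9%). The joint was within 2-fold in 222 (62.4%, against 72.7%), above in 74 (20.8%, against 12.4%) and below in 60 (16.9%, against 14.9%).

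The differences were also computed within ImmGen labels, since these were unequal among the sites. Among cells labelled GN.Arth.SynF alone 288 genes were higher (7.94% of those then kept) and 308 lower (8.5%), of which 225 and 286 had the same call among all cells. Among cells labelled GN.Thio.PC alone 335 were higher (8.06%) and 426 lower (10.3%), of which 162 and 265 had the same call. Of the named genes, Ngp and Psmb8 lost their call among GN.Arth.SynF cells. Fosb, Dusp5, Srxn1 and Vim lost their higher call among GN.Thio.PC cells, and P2ry2, Il23a, Hbegf, Irf5, Ifitm6, Egln3, Hspa8, Marcksl1 and Marcks their lower call. With cells under 1000 UMIs left out, 267 genes were higher (7.08%) and 349 lower (9.25%).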

How the data were processed

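Neutrophils of the 5 inflammation conditions were pooled into one 10X library, and the libraries of healthy blood, bone marrow and spleen were not used here. The deposited values are UMI counts per gene and cell, which the authors made by aligning reads to mm10 with Cell Ranger; counts of transcripts with the same symbol were added by the authors, hashtags were demultiplexed, and cells with more than 1 hashtag or none were removed by the authors. No doublet caller was run, and droplets with 2 cells of the same hashtag were not identified. The condition of each cell and its ImmGen label came from the authors' deposited cell table.

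Raw UMIs were summed per condition over GN cells. TMM factors came from edgeR 4.0.16 and the alternative size factors from DESeq2 1.42.0 in R 4.3.3; sums, intervals and figures were made in Python 3.11.15 (pandas 2.3.3, scipy 1.17.1, matplotlib 3.10.9). No differential test was run, since each condition is 1 sample of 3 pooled mice. Genes with a mean of at least 20 scaled CPM over the joint and both IL-1β sites were kept, and a ratio with fewer than 3 UMIs on one side used 3 UMIs there. No ratio was given where both sides had 3 UMIs or fewer, or where this floor alone would set its direction. Intervals are 95% Poisson for sums and Clopper-Pearson for shares, and cover counting error only. For shares of cells, each cell with at least 1000 UMIs was thinned to 1000, which left 2734, 286, 231, 674 and 354 cells of the joint, lung, peritoneum, K/BxN blood and healthy blood; healthy blood of the same library served as the comparison for free RNA.

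Named were the 20 genes per direction with the largest smaller log2 ratio whose higher side reached 100 scaled CPM, up to 4 members per direction of each list, 8 further genes whatever their values (Cxcr2, Cxcr4, Cebpb, Retnlg, Mmp9, Il1b, S100a8 and S100a9), and genes of opposite direction with a mean of at least 100 scaled CPM. Fos, P4ha1, Psap, Ctsb, Npc2, Apoe, Nfkbia, Tnfaip3, Isg15, Rsad2, Usp18, Oasl1, Ifi47, Rel, Rela, Tnfaip2, Nfkbid, Tnip3, Socs1 and Socs4 were added after their values were seen, to complete lists or families. The members and the 16 lists were chosen with earlier results of these data known. Motifs (AP-1 TGANTCA, CRE TGACGTCA, NF-κB by its degenerate consensus, STAT TTCNNNGAA and CLEAR TCACGTG) were searched on both strands of RefSeq promoters of GRCm38.p6 (250 bases before to 50 after the gene start, longer than the windows printed), the last 2 added after the named genes were seen. The comparison was tested on simulated counts.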

Additional observations from a re-analysis of the deposited data

Results flagged for a closer look

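Of the 11 genes past 2-fold in opposite directions against the lung and the peritoneum, 3 had a mean of at least 100 scaled CPM. They are listed because the joint lay between the IL-1β sites, so the contrast changed sign with the site chosen; with 1 sample per condition the difference was not tested. Nr4a1, an immediate early nuclear receptor, measured 357, 94.9 and 1220.1 scaled CPM in the joint, lung and peritoneum, with log2 ratios of 1.91 against the lung and -1.77 against the peritoneum. Rilpl2, a Rab-interacting protein, measured 259, 94.9 and 779.6, with log2 ratios of 1.45 and -1.59. Osm, the cytokine oncostatin M, was ordered the other way at 305, 894 and 126, with log2 ratios of -1.55 and 1.28. In healthy blood the 3 genes measured 41, 35.8 and 21.4, below all 3 sites for each gene.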

How the results depend on the processing

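No paired analysis was possible because each condition is 1 pooled sample in a single library, and no replicate could be left out for the same reason. Below, counts are given as higher and lower in the joint than both sites, then against the lung, then against the peritoneum. Under plain CPM they were 497 and 219, 799 and 327, and 823 and 347, with 62 list members higher and 56 lower. Of the 3487 genes then kept, 14.3% were higher and 6.28% lower than both sites, against 7.01% and 9.38% in the main setting. With totals that left out the 20 most abundant genes, 596 were higher than both (13.8% of the 4310 genes then kept), 932 than the lung and 1072 than the peritoneum, with 62 list members higher. Without the filter on low levels they were 636 and 552, 1294 and 1127, and 1156 and 1090. Of the 13187 genes then kept, 4.82% were higher and 4.19% lower than both sites, so these shares fell while the counts rose. With a mean of at least 100 CPM they were 65 and 207, 105 and 275, and 114 and 305, with 20 list members higher. Of the 1389 genes then kept, 4.68% were higher and 14.9% lower than both sites. At 1.5-fold they were 555 and 598, 917 and 857, and 907 and 928, with 64 list members higher, and at 3-fold 92 and 199, 191 and 285, and 211 and 329, with 21 list members higher and 49 lower. The shares higher and lower than both sites were 14.6% and 15.7% at 1.5-fold and 2.42% and 5.24% at 3-fold. Among GN.Thio.PC cells alone, 781 were higher than the lung and 787 than the peritoneum, with 57 list members higher. In that setting Ifitm6 and Hspa8 reversed against the lung, to log2 ratios of 0.70 and 0.35, and the cause was not tested. Thinned cells gave 341 higher and 315 lower against both sites (9.06% and 8.37% of genes then kept), and the mean of CPM over cells 265 and 475 (6.61% and 11.8%).

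No gene crossed from higher to lower than both sites in any of these settings. For changes of scaling, fold or filter this was fixed in advance. Only settings that changed the cells or their weights could have given a crossing. Of the 96 named genes with a call, 86 kept it under plain CPM, 94 with size factors, 77 at 3-fold, 92 among GN.Arth.SynF cells and 79 among GN.Thio.PC cells. The lung and the peritoneum had far fewer UMIs than the joint, so low genes were measured least precisely there, with floors of 2.96 and 4.29 scaled CPM for 3 UMIs against 0.291 in the joint.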

Other observations

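Some gene groups that belong to no list above were looked at after the other values were seen. Of 80 ribosomal protein genes, 54 respiratory chain genes encoded in the nucleus and 10 genes encoded in mitochondria, 0 passed 2-fold against both sites in either direction. Ribosomal protein genes summed to 25273, 31739 and 28978 scaled CPM in the joint, lung and peritoneum, with median log2 ratios of -0.31 and -0.14 against the lung and the peritoneum that became 0.08 and 0.29 under plain CPM. Mitochondrially encoded genes summed to 3517, 5457 and 4559, with medians of -0.74 and -0.53, and of -0.36 and -0.10 under plain CPM. The respiratory chain genes had medians of -0.13 and -0.02, which turned to 0.25 and 0.41 under plain CPM. Of 23 proteasome subunits 1 was higher (4.35%, against 7.01% of all kept genes), the immunoproteasome subunit Psmb8, which was at the edge of the 2-fold limit.

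Stefin A genes, a mouse family of cysteine protease inhibitors abundant in neutrophils, had 1 higher member of 7, BC100530 (14.3%, against 7.01% of all kept genes). The 7 genes together summed to 5469.7, 6769 and 5760.2 scaled CPM in the joint, lung and peritoneum and to 4525 and 1323 in K/BxN and healthy blood, so all 3 sites and K/BxN blood were above healthy blood. The members are close copies of each other, so their separate values are uncertain.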
